A study of Bos taurus with 18 samples.

Results

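The heat shock and cold-inducible genes described here are HSPA8, HSPH1, DNAJB1, HSPB1 and HSPE1, which are targets of the heat shock transcription factor HSF1, and RBM3 and CIRBP, which encode cold-inducible RNA-binding proteins. Of 10 listed genes, 7 had a probe set that the platform annotation gives to that gene alone, and each of the 7 had a single such probe set, among 18010 genes with a probe set of their own and 24333 probe sets in all. The other 3 listed genes, HSPA1A, HSP90AA1 and HSPD1, had only probe sets that the annotation shares between gene records, so they are not counted as members and their values are given apart. The members were chosen by gene name with earlier results of these data known, so the log2 values of these arrays, the difference between niacin and control cows included, count as having chosen them, and their differences between the groups are given as a description.

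The values come from liver biopsies of 18 multiparous Holstein cows taken 1 week after calving, measured on 1 Affymetrix Bovine Gene 1.0 ST array per cow. The niacin group (n = 9) ate niacin coated against breakdown by rumen microbes (NiaShure), starting 3 weeks ahead of the expected calving. The dose of 79 mg per kg body weight was put by the labels at 47 mg reaching the duodenum, of which an estimated 31 mg could be absorbed. Control cows (n = 9) had the same silage-based mixed rations without it. Ages, parity numbers and body temperatures per cow were not given in the sources used here.

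Heat shock proteins are chaperones that bind unfolded protein chains and help them to fold. Their transcription rises when unfolded protein draws the chaperone partners of HSF1 away from it. RBM3 and CIRBP do the opposite with temperature in cultured human and mouse cells, where their transcripts increase on mild cooling and decrease on warming. Both bind RNA and act on splicing, transcript stability and translation, and in mouse liver their transcripts follow the daily rhythm of body temperature.

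All 5 heat shock members had a higher mean in niacin cows than in control cows, and both cold-inducible members had a lower one. None of these differences passed the test over the whole table. The differences were 0.24 log2 units for HSPA8 and HSPH1, 0.20 for HSPB1, 0.19 for DNAJB1 and 0.06 for HSPE1, against -0.44 for RBM3 and -0.35 for CIRBP. In the limma fit of all 18250 probe sets tested, 0 of the 7 members had an adjusted p under 0.05, and 0 of all probe sets did (0%), with 1413 (7.74%) at an unadjusted p under 0.05. The exact permutation test over all splits into 9 and 9 called 0 probe sets with adjusted p-values and 1375 with unadjusted ones. The members' adjusted p in limma ran from 0.453 for RBM3 and CIRBP to 0.871 for HSPE1. At an unadjusted p under 0.05, 4 of the 7 members were counted, HSPA8 and DNAJB1 higher (3.34% of all probe sets were) and RBM3 and CIRBP lower (4.41% were), and nothing is read from that count since the list was chosen with this difference known.

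**Figure D1:**
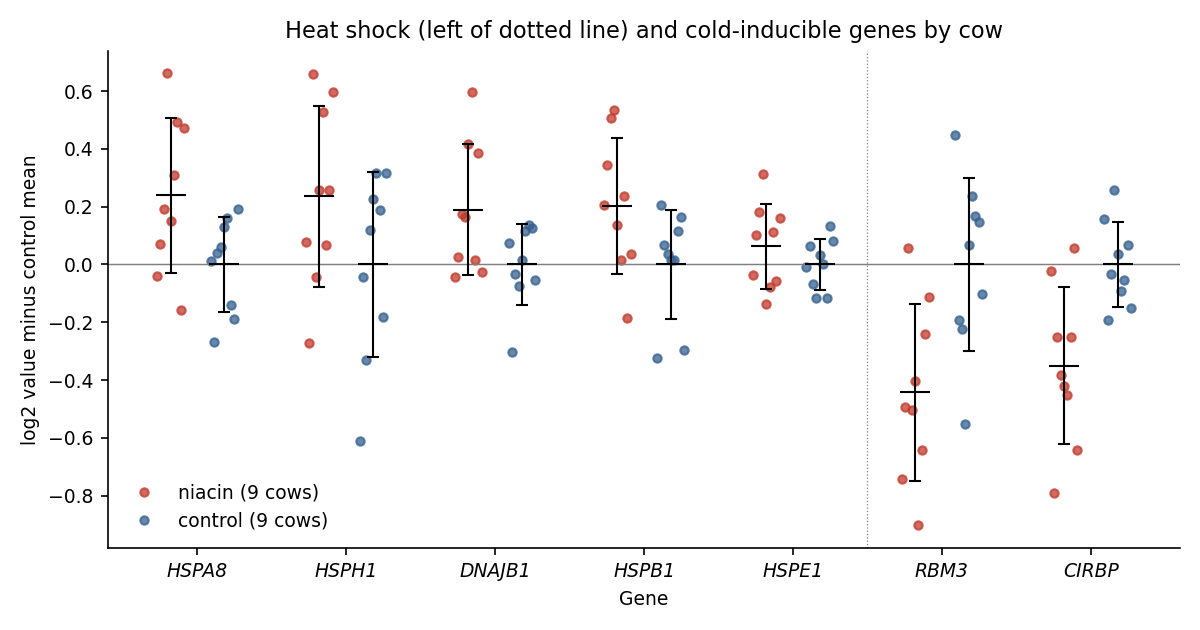
Log2 value of each cow minus the control mean of the gene (vertical axis) for the 5 heat shock genes and the 2 cold-inducible genes, with niacin cows in red to the left of control cows in blue. Points are cows, and bars are the mean and SD of 9 cows. Most red points of RBM3 and CIRBP lie below 0, and the red points of HSPA8, HSPH1, DNAJB1 and HSPB1 spread above it while overlapping the blue points.

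HSPA8 encodes the constitutive cytosolic HSP70, which folds new protein chains and uncoats vesicles. Its log2 value ran from 10.60 to 11.42 with a median of 10.95 in niacin cows, and from 10.49 to 10.95 with a median of 10.80 in control cows. The groups overlapped, with 4 of 9 niacin cows above the highest control cow and 2 below the control median. The mean was 11.00 ± 0.268 in niacin cows and 10.76 ± 0.163 in control cows (SD, n = 9 each), a difference of 0.24 (95% interval 0.028 to 0.45) or 1.18-fold. The 95% intervals given for members make no allowance for how the genes were chosen, so none is read as a test.

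HSPH1 encodes HSP110, which exchanges the nucleotide of HSP70 and pulls proteins out of aggregates with it. Niacin cows lay between 6.77 and 7.70 with a median of 7.30, and control cows between 6.43 and 7.36 with a median of 7.16. The overlap was wider than for HSPA8, with 3 niacin cows above all control cows and 4 below the control median. The difference of 0.24 had a 95% interval of -0.05 to 0.52.

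DNAJB1, an HSP40 that delivers clients to HSP70, ran from 8.04 to 8.68 (median 8.25) in niacin cows and from 7.78 to 8.22 (median 8.10) in control cows. HSPB1, a small heat shock protein (HSP27) that holds unfolded proteins in a foldable state, ran from 9.77 to 10.49 (median 10.16) in niacin cows and from 9.63 to 10.16 (median 9.99) in control cows. In both genes most niacin cows lay in the upper part of the control range or above it, with 5 of 9 above all control cows for DNAJB1 and 4 of 9 for HSPB1. For DNAJB1 the lowest control cow, control 36, stood apart at 7.78, with the next at 8.01. HSPE1, the mitochondrial HSP10 that caps the HSP60 folding chamber, hardly varied: 95.2% of probe sets tested had a larger SD over the 18 cows. It ran from 10.50 to 10.95 (median 10.74) in niacin cows and from 10.52 to 10.77 (median 10.64) in control cows.

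RBM3 showed the wider separation of medians. Its log2 value ran from 6.61 to 7.57 with a median of 7.02 in niacin cows, and from 6.96 to 7.96 with a median of 7.58 in control cows. All 9 niacin cows lay below the control median, although only 3 lay below the lowest control cow, control 11. The mean was 7.07 ± 0.306 in niacin cows and 7.51 ± 0.299 in control cows (SD, n = 9 each), a difference of -0.44 (95% interval -0.72 to -0.17) or 0.736-fold.

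CIRBP ran from 6.13 to 6.98 with a median of 6.54 in niacin cows, and from 6.73 to 7.18 with a median of 6.89 in control cows. In this gene 7 of 9 niacin cows lay below the lowest control cow, and the other 2 (niacin 33 and niacin 39) lay within the control range. The mean was 6.57 ± 0.272 in niacin cows and 6.92 ± 0.146 in control cows (SD, n = 9 each), a difference of -0.35 (95% interval -0.56 to -0.14) or 0.784-fold.

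Of the 3 shared probe sets, 12804546 is annotated to 2 gene records that are both named HSPA1A, the inducible HSP70. It averaged 9.84 ± 0.339 in niacin cows and 9.60 ± 0.220 in control cows, a difference of 0.24. Probe set 12791662, annotated to the cytosolic HSP90 gene HSP90AA1 and to LOC781339, differed by 0.18, and probe set 12781354, annotated to the mitochondrial HSP60 gene HSPD1 and to LOC100299770, differed by 0.15. For 12781354 all 9 niacin cows lay above the control median. These probe sets may read more than 1 gene, so their values belong to no single gene, and their adjusted p in limma was 0.664 for 12804546, 0.616 for 12791662 and 0.655 for 12781354.

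Leukocyte markers moved with some of these differences. The mean of the neutrophil, macrophage, T and NK cell and B cell markers was 6.42 to 6.83 in niacin cows and 6.21 to 6.58 in control cows. All 9 neutrophil markers and 11 of 12 macrophage markers tested had a difference above 0 (53.8% of all probe sets did). So did 8 of 11 T and NK cell markers and 4 of 7 B and plasma cell markers. Hepatocyte markers remained bright, with a mean of 11.46 to 11.75 in niacin cows and 11.57 to 11.83 in control cows. Of these 12 markers 9 had a difference below 0 (45.8% of all probe sets did). At a limma unadjusted p under 0.05, 3 of them were lower (4.41% of all probe sets were), and 0 passed with adjusted p. Their median difference was -0.04, beside 0.01 over all probe sets tested. Higher at that unadjusted threshold were 2 of 9 neutrophil, 4 of 12 macrophage, 3 of 11 T and NK cell and 1 of 7 B and plasma cell markers. Of all probe sets 3.34% were, and none of these markers passed with adjusted p. Across cows with the group means removed, that leukocyte mean had r = 0.526 with DNAJB1 and 0.577 with HSPB1, and between -0.092 and 0.099 with HSPA8, HSPH1, HSPE1, RBM3 and CIRBP. With the leukocyte mean as a covariate the difference was 0.07 for DNAJB1 and 0.06 for HSPB1, while it was 0.21 for HSPA8, 0.23 for HSPH1, -0.41 for RBM3 and -0.34 for CIRBP. For the shared probe sets it was 0.12 for 12804546, against 0.24 without the covariate, and 0.09 for 12791662, against 0.18. The third, 12781354, did not shrink, at 0.16 against 0.15, and neither did HSPE1, at 0.07 against 0.06. The part of leukocytes in these differences was not tested beyond this. In a biopsy, fewer cells of a type and less RNA per cell cannot be told apart.

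How the members vary from cow to cow rests on the same log2 values, so it is given as a description too, with no test. It was measured after the mean of each group was removed, so that the difference between niacin and control cows does not enter. The closest pair was HSPA8 with HSPH1, RBM3 and CIRBP had a positive r with each other, and HSPA8 ran against RBM3. Among the 10 pairs of heat shock genes 9 had r above 0. Within the groups they were less uniform, with r below 0 in 2 of these pairs in niacin cows and in 4 in control cows. Among the 10 pairs of a heat shock with a cold-inducible gene 9 had r below 0, with a median of -0.396. Within the groups 8 of these had r below 0 in niacin cows and 8 in control cows. No such count was made for pairs of other probe sets.

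HSPA8 and HSPH1 gave r = 0.876 and Spearman's rho = 0.893 over 18 cows. Within the groups r was 0.952 in niacin cows and 0.827 in control cows, and it was 0.852 without the 2 cows farthest from the median. No other probe set of 18249 had a higher r with HSPA8 than HSPH1 did, and none had a higher r with HSPH1 than HSPA8 did. The slope of HSPH1 was 1.25 ± 0.19 log2 units per unit of HSPA8 (SE, group as a covariate). On leaving out each cow in turn r stayed between 0.846 (without niacin 39) and 0.909 (without control 12).

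DNAJB1 had r = 0.654 with HSPA8 and 0.668 with HSPH1. Within the groups r of DNAJB1 with HSPA8 was 0.589 in niacin cows and 0.828 in control cows, and 279 of 18249 probe sets (1.53%) had a higher r with HSPA8 over all cows. HSPB1 gave r = 0.511 with DNAJB1. The r of HSPE1 with HSPA8 was 0.621 in niacin cows and -0.357 in control cows, a difference that was not tested. The shared probe set 12804546 had r = 0.814 with HSPA8 and 0.812 with DNAJB1. The other shared probe sets followed these genes less. For 12791662 r was 0.198 with HSPA8 and 0.355 with DNAJB1, and for 12781354 it was 0.211 and -0.236.

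RBM3 and CIRBP gave r = 0.719 and rho = 0.755 over 18 cows, with r = 0.798 in niacin cows and 0.654 in control cows. Leaving out the 2 cows farthest from the median gave 0.633. The slope of CIRBP was 0.52 ± 0.14 per unit of RBM3 (SE), and 94 probe sets (0.515%) had a higher r with RBM3.

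**Figure D2:**
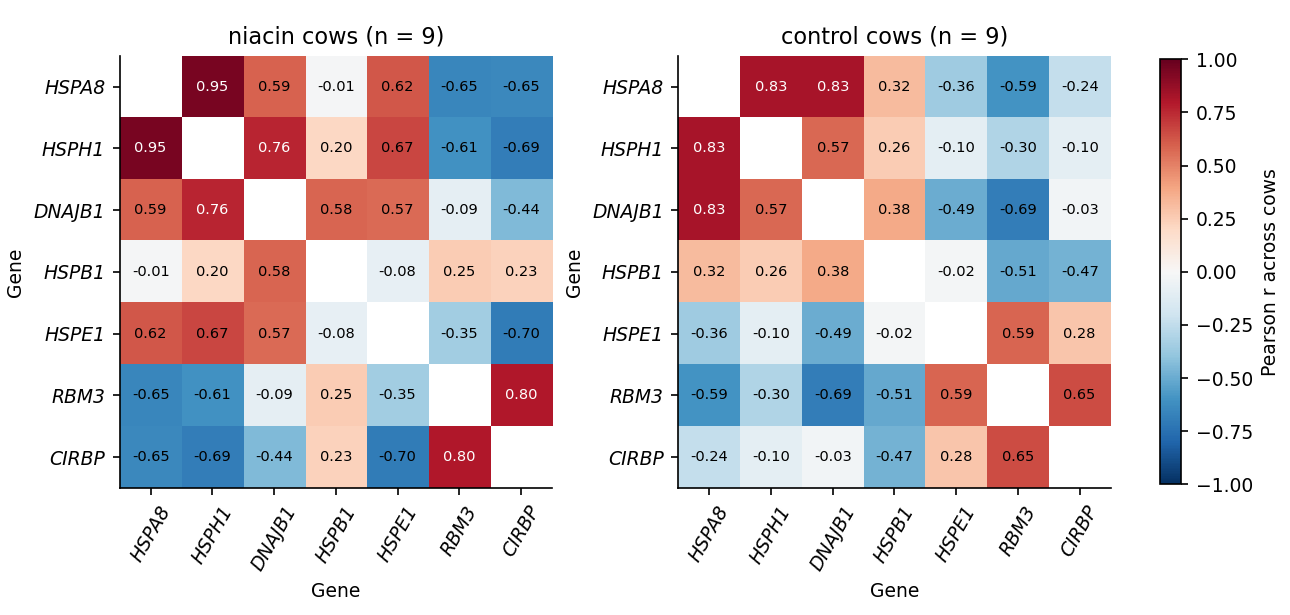
Pearson r across cows for each pair of members, in the 9 niacin cows (left) and the 9 control cows (right). Red cells are positive and blue cells negative. HSPA8, HSPH1 and DNAJB1 form a red block in both groups and RBM3 with CIRBP a red pair, while the columns of HSPB1 and HSPE1 differ between the panels.

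Between the heat shock and the cold-inducible genes the most negative relation was that of HSPA8 with RBM3, at r = -0.616 and rho = -0.583. It was -0.654 in niacin cows and -0.595 in control cows. Without niacin 15 and niacin 39, the cows with the highest and the lowest HSPA8 of their group, r was -0.399, so the size of the relation rests in part on them. The slope of HSPA8 was -0.45 ± 0.15 per unit of RBM3 (SE), and 2.78% of probe sets had a lower r with RBM3.

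HSPA8 with CIRBP gave r = -0.547, and -0.175 without the same 2 cows, so this relation rests on them. HSPH1 with CIRBP gave -0.458, with -0.689 in niacin cows and -0.0986 in control cows. For HSPB1 r was -0.0816 with RBM3 and 0.0176 with CIRBP. HSPE1 with RBM3 gave -0.004, with -0.346 in niacin cows and 0.586 in control cows. With CIRBP it gave -0.464, with -0.700 in niacin cows and 0.275 in control cows. DNAJB1 gave -0.340 with CIRBP and -0.309 with RBM3, the latter -0.092 in niacin cows and -0.691 in control cows. Whether the relations differed between niacin and control cows was not tested.

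**Figure D3:**
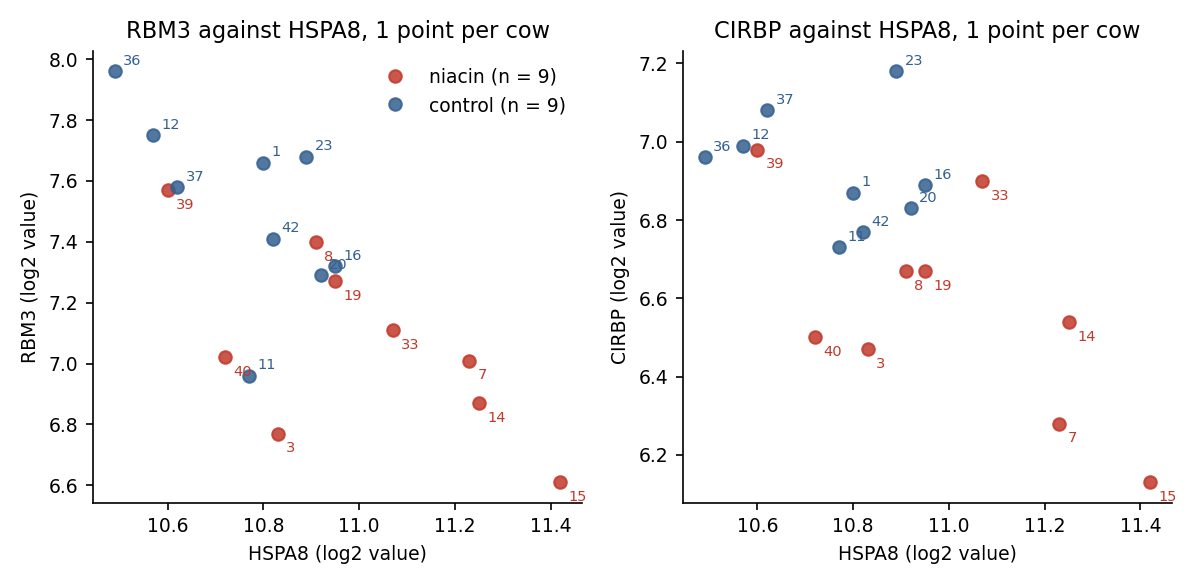
Log2 value of RBM3 (left) and CIRBP (right) against that of HSPA8, with 1 point per cow labelled by cow number, niacin in red and control in blue. Niacin 15 has the highest HSPA8 and the lowest RBM3 and CIRBP of all 18 cows, and control 36 has the lowest HSPA8 and the highest RBM3.

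Read cow by cow against the mean of all 18 cows, the values hold the difference between the groups again and add no support to it. On that scale 4 niacin cows had the heat shock members above and the cold-inducible members below on average, and 0 control cows did. The reverse, heat shock below and cold-inducible above, was found in 1 niacin cow and in 5 control cows. The mean deviation of the 5 heat shock members ran from -0.17 to 0.36 in niacin cows and from -0.31 to 0.06 in control cows. That of the 2 cold-inducible members ran from -0.65 to 0.26 in niacin cows and from -0.17 to 0.44 in control cows. At the ends stood niacin 15, with an RBM3 of 6.61 and an HSPA8 of 11.42, and control 36, with an RBM3 of 7.96 and an HSPA8 of 10.49. Niacin 39 had the highest RBM3 (7.57) and the lowest HSPA8 (10.60) of the niacin cows.

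The array median, which lay between 5.57 and 5.72, moved with most of these genes too. Its r across cows was -0.645 with HSPH1, -0.518 with HSPB1, -0.488 with HSPA8, -0.441 with DNAJB1 and -0.097 with HSPE1. With the cold-inducible genes it was 0.406 for RBM3 and 0.293 for CIRBP. Its part in the relations between members was not tested, and RNA integrity per cow was not given in the sources used here. Correlations between arrays over all probe sets lay between 0.972 and 0.990.

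Other chaperone genes were read from lists. These lists, and those of the RNA-binding, clock and immediate early genes below, were chosen with earlier results of these data known. Their counts are therefore given as a description. Of 24 genes of the cytosolic chaperone and HSF1 pathway tested, 19 had a difference above 0 (53.8% of all probe sets did), 3 were higher at an unadjusted p under 0.05 (3.34% of all probe sets were) and 0 passed in limma. The median difference was 0.04, beside 0.01 over all probe sets tested. Those with the smallest p were HSPB6, a small heat shock protein, at 0.23, the HSP40 gene DNAJA4 at 0.26 and HSF1 itself at 0.16, with limma adjusted p of 0.474, 0.532 and 0.558. All 9 niacin cows lay above the control median for HSPB6 and for HSF1. The inducible chaperone partner BAG3 (-0.03) and the HSP90 gene HSP90AB1 (0.01) lay close to 0; both were named after their values were seen.

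The mitochondrial chaperones and proteases had a median difference of 0.06, with 6 of 9 genes above 0 (53.8% of all probe sets were) and 0 of 9 at an unadjusted p under 0.05. HSPA9, the mitochondrial HSP70, differed by 0.16, its nucleotide exchange factor GRPEL1 by 0.12 and DNAJA3 by 0.09. The CCT chaperonin, which folds actin and tubulin, had a median of 0.01 over 7 subunit genes with 0 at an unadjusted p under 0.05, among them CCT3 (0.08), CCT2 (0.07) and CCT5 (-0.06). All 14 endoplasmic reticulum chaperone genes were above 0, beside 53.8% of all probe sets, with a median of 0.12. At an unadjusted p under 0.05, 2 of them were higher (CRELD2 at 0.33 and SDF2L1 at 0.24), beside 3.34% of all probe sets, and 0 passed in limma. HYOU1, an HSP70 relative of that compartment, differed by 0.36.

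From cow to cow, chaperone genes of the cytosol and mitochondria tended to follow HSPA8. The median r with HSPA8 was 0.622 over the CCT subunits and 0.547 over the mitochondrial chaperones, against 0.340 over the cytosolic list, 0.150 over the endoplasmic reticulum list and -0.026 over all probe sets tested. All 7 CCT genes had r above 0 with HSPA8 (47.1% of all probe sets did), from 0.328 for CCT7 to 0.766 for CCT6A, and 6 of 7 had an unadjusted p under 0.05 on the positive side (7.97% of all probe sets did). In the cytosolic list 19 of 24 genes had r above 0 with HSPA8. The highest r was that of HSPB8 (0.699), DNAJB2 (0.627), HSPA4 (0.619), HSP90AB1 (0.619) and the HSP90 partner FKBP4 (0.619). Below 0 were CRYAB (-0.425), DNAJA4 (-0.359), SERPINH1 (-0.272), PTGES3 (-0.248) and CDC37 (-0.134). The genes at both ends were named here after their values were seen. The median r with RBM3 was -0.453 over the CCT list, -0.446 over the mitochondrial list and -0.236 over the cytosolic list. No gene of these lists passed with HSPA8 in the whole-table fit, and 1 passed with RBM3, the HSP70 cochaperone gene BAG1 (r = -0.735, limma adjusted p = 0.0482), beside 0.521% of all probe sets with a negative slope.

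In the fit with HSPA8 as the predictor 14 of 18249 probe sets (0.0767%) passed, all with a positive slope. They were HSPH1, 3 probe sets of HIGD1A (a mitochondrial protein induced by hypoxia), CCM2, SLC25A33, PMEPA1, ABHD6, UBE2J2, MRAS, TMEM50B, FITM2, the shared probe set 12804546 and 1 probe set without a symbol. HSPH1 and 12804546 belong to listed genes, which count as chosen on these values, so nothing is read from their passing. The count of probe sets that passed was 0 without control 36 or niacin 39, 68 without niacin 3, and between these without the others. With HSPH1 as the predictor 0 probe sets passed in limma (14.8% had an unadjusted p under 0.05), and with CIRBP 0 did (10.8%), though 12 passed with CIRBP without niacin 7 and 13 without niacin 8. The genes most like HSPH1 by r over the 18 cows were ZNF583 (0.838), AP5M1 (0.827), KLHL9 (0.824), the proteasome subunit gene PSMA5 (0.817) and NPLOC4 (0.814), a cofactor that brings ubiquitinated proteins to the p97 segregase. Those least like it were GRID2IP (-0.803), ST8SIA5 (-0.795) and RAB39B (-0.784).

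The most like CIRBP were SHANK2 (0.835), MLXIPL (0.827), which encodes the carbohydrate response factor ChREBP, IFT88 (0.822), TNS2 (0.803) and TANGO6 (0.802), and the least like were TMEM30A (-0.804), RAB21 (-0.788) and CRK (-0.787). Their limma adjusted p as outcomes of CIRBP ran from 0.0701 to 0.172, so none passed.

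With RBM3 as the predictor 173 of 18249 probe sets (0.948%) passed in limma, 78 with a positive slope (0.427%) and 95 with a negative one (0.521%). That count was 33 without control 12 and 309 without niacin 8, with the other cows between. Most like it were SNRNP70 (r = 0.883, adjusted p = 0.00888), a U1 spliceosome protein, ZRANB2 (0.869, 0.00888), a splicing factor, PTBP2 (0.866, 0.009), a splicing repressor, PNISR (0.851, 0.0106), a serine and arginine rich nuclear protein, and the microRNA gene MIR2411 (0.835, 0.0106). Each of these had r above 0.77 within niacin cows and within control cows. They were picked by their r over the same cows, so these values add no support. Least like it were TMEM170A (-0.873), LMBR1 (-0.871) and LRP5 (-0.849).

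A list of other RNA-binding and splicing proteins followed RBM3 in the same way. That list, like RBM3, was chosen with earlier results of these data known, so nothing is read from its count of calls. Of its 15 genes 9 passed with RBM3 in the whole-table fit, beside 0.427% of probe sets with a positive slope, and all 15 had r above 0 (51.2% of all probe sets did), with a median of 0.738. The 9 were the SR protein genes SRSF2, SRSF5 and SRSF6, their relatives TRA2A and TRA2B, HNRNPA2B1, HNRNPDL and the SR protein kinase genes CLK1 and CLK4. Their r ran from 0.714 for CLK4 to 0.803 for SRSF5. The count depended on single cows: it was 1 without control 11, 2 without control 12, 3 without control 16 and without niacin 3, niacin 14, niacin 15 or niacin 39, 4 without control 36 and 5 without control 20 or niacin 19, and 0 within either group alone. The median r itself moved little, from 0.647 to 0.762 on leaving out each cow in turn. With CIRBP the same list had a median r of 0.517 and 0 genes passed, and with HSPA8 a median r of -0.330.

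Between the groups all 15 genes of that list were lower in niacin cows (45.8% of all probe sets were), with a median difference of -0.20, 4 at an unadjusted p under 0.05 (4.41% of all probe sets were on the lower side) and 0 passing in limma. CLK4 averaged 7.64 in niacin cows and 8.15 in control cows, a difference of -0.51 with an SE of 0.17. HNRNPDL averaged 8.59 in niacin cows and 8.92 in control cows (-0.33, SE 0.10), and TRA2A 8.08 in niacin cows and 8.40 in control cows (-0.33, SE 0.13). All 9 niacin cows lay below the control median for CLK4 and HNRNPDL, and 8 of 9 did for TRA2A. The limma adjusted p of these 3 genes was between 0.473 and 0.558. The counts for this list are a description, since it was chosen with earlier results of these data known.

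**Figure D4:**
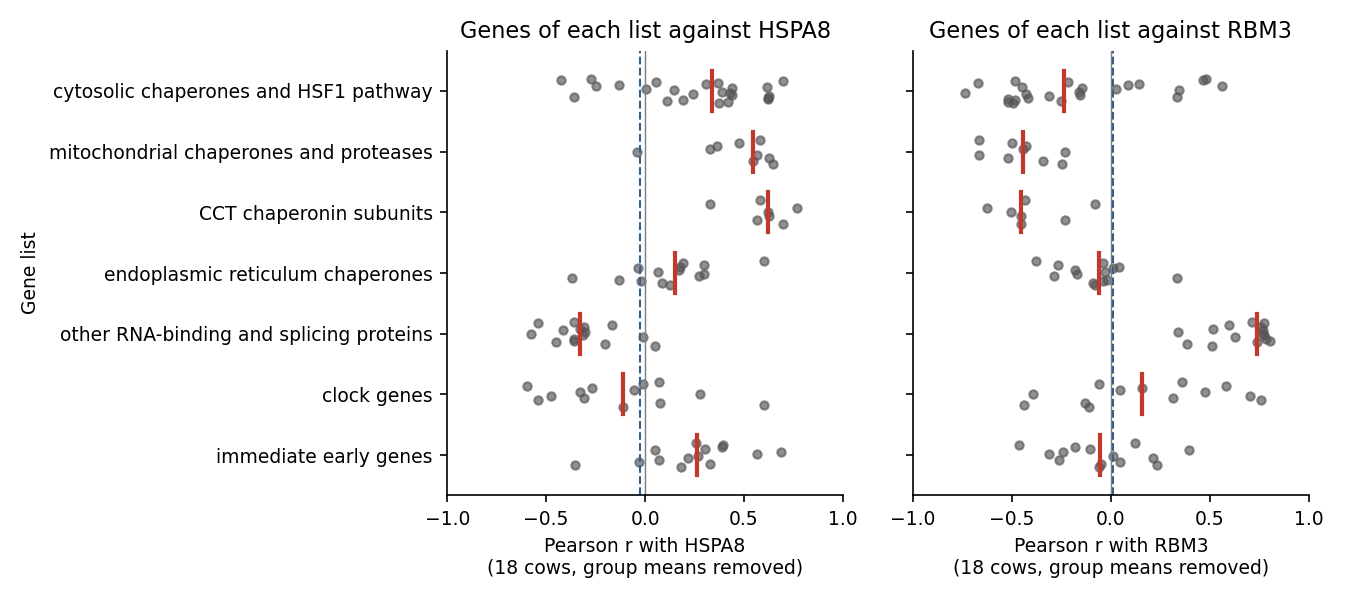
Pearson r of each gene of 7 lists with HSPA8 (left) and with RBM3 (right) over 18 cows with the group means removed. Points are genes, red bars the median of a list and dashed lines the median of all probe sets tested. The CCT and mitochondrial chaperones lie to the right for HSPA8 and to the left for RBM3, and the RNA-binding and splicing genes lie to the right for RBM3.

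The clock genes, some of which respond to body temperature, were 10 of 13 below 0 in niacin cows relative to control cows (45.8% of all probe sets were). Their median was -0.15. At an unadjusted p under 0.05, 4 were lower (4.41% of all probe sets were), and 0 passed in limma. PER3 differed by -0.54, BHLHE41 by -0.39 and HLF by -0.21, with limma adjusted p from 0.476 to 0.502. Across cows PER1 (r = 0.759, adjusted p = 0.0303) and PER3 (r = 0.701, adjusted p = 0.0482) passed with RBM3 in limma, 2 of 13 beside 0.427% of all probe sets with a positive slope, and the other 11 did not. With RBM3 the calls over the whole table numbered 33 without control 12 and 0 within either group alone. The hour at which each biopsy was taken was not given in the sources used here.

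Immediate early genes, which respond within minutes to handling and many other stimuli, were 12 of 14 above 0 (53.8% of all probe sets were) with a median of 0.14. At an unadjusted p under 0.05, 1 of 14 was higher, beside 3.34% of all probe sets, and 0 passed in limma. ATF3 differed by 0.39, JUNB by 0.24 and ZFP36 by 0.16, with limma adjusted p of 0.473, 0.655 and 0.664. Their median r was 0.265 with HSPA8 and -0.053 with RBM3, and DUSP1, chosen after its values were seen, had r = 0.687 with HSPA8.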

How the data were processed

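Per the submitters' processing notes, the authors made the deposited log2 values in Affymetrix Expression Console by RMA, which corrects background, equalizes the arrays by quantiles and summarizes each probe set. Versions were not given. The values themselves (0.85 to 14.04) showed the log2 scale. Quantile normalization would hide a shift common to most genes. Per the labels' protocols, 22 cows were studied, 11 per group, and 2 RNA samples of each group, those of lowest integrity, were dropped. The integrity number of the 18 kept was 7.2 ± 0.5 (SD). Groups came from sample titles. The labels gave no batch.

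Genes were taken from the platform annotation (18457 probe sets with 1 symbol, 688 with several, 5188 with none), the brightest by mean where a gene had several. Levels of different probe sets were not compared. The members and gene lists were chosen with earlier results of these data known. The dimmest 6083 probe sets (share 0.25, mean under 4.35) were left out, and 18250 were fitted in R 4.3.3 with limma 3.58.1 (lmFit, eBayes, niacin minus control, Benjamini-Hochberg, threshold 0.05, two-sided). Associations used a member as predictor with group as a covariate over the other 18249. Pairs of members were described in Python 3.11.15 by r after removing group means, with no test, since their values chose them. The number of arrays limits the precision. Scripts were tested on simulated data.

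Named genes were the members, the 3 of each list with the smallest p in niacin minus control, and the 5 most and 3 least like HSPH1, CIRBP and RBM3 by r. Genes named beyond this rule are marked as chosen by their values, are counted calls, or are the ends of a range. Alternatives were other filters, normalizations, covariates and variance models, and leaving out each cow in turn.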

Additional observations from a re-analysis of the deposited data

Results flagged for a closer look

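Of 110 groups of 9 values checked (members, shared probe sets, genes named for likeness and genes named from the lists, in niacin and in control cows), 6 had a highest or lowest cow that stood apart by Dixon's test at the 95% level (gap to the next over the whole range). Chance alone sets apart about 1 in 20 groups, or 5.5 of these. DNAJB1 was lowest among control cows in control 36, at 7.78 against 8.01 in the next. Probe set 12781354, shared by HSPD1 and LOC100299770, was highest among niacin cows in niacin 15, at 6.31 against 6.09 in the next. ZNF583 was lowest in niacin 39 among niacin cows (6.15, next 6.64) and in control 12 among control cows (6.04, next 6.41). NPLOC4 was lowest among control cows in control 12 (7.14, next 7.37), and ZRANB2 among niacin cows in niacin 15 (6.55, next 7.40).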

How the results depend on the processing

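The difference between niacin and control cows kept its sign for all 7 members under each alternative run, and 0 members passed over the whole table. Leaving out each cow in turn gave 0.19 to 0.29 for HSPA8, 0.16 to 0.30 for HSPH1, 0.14 to 0.22 for DNAJB1, 0.16 to 0.25 for HSPB1, 0.03 (without niacin 15) to 0.09 for HSPE1, -0.51 to -0.38 for RBM3 and -0.40 to -0.30 for CIRBP. With the leukocyte marker mean as a covariate, 802 probe sets had an unadjusted p under 0.05 in place of 1413 and 2 members in place of 4. Leaving out each cow gave 0 to 1 probe sets past the adjusted threshold (1 without niacin 39), 1100 to 1732 at the unadjusted one, and 2 (without control 12, control 36, niacin 7 or niacin 14) to 5 members. The cause was not tested for any of these.

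The counts of associated probe sets were the least steady values. Without the group term they were 36 for HSPA8, 2 for HSPH1, 474 for RBM3 and 230 for CIRBP, a fit in which the difference between the groups enters. After a second quantile normalization they were 0 for HSPA8, 281 for RBM3 and 19 for CIRBP, without the filter 3 for HSPA8 and 108 for RBM3, and with the leukocyte covariate 1 for CIRBP. Within niacin cows alone, with fewer samples, 0 passed for HSPA8 and RBM3 and 0 of the RNA-binding list with RBM3. Within control cows alone 1 passed for HSPA8, 3 for HSPH1, 0 for RBM3 and 0 of that list. Leaving out each cow gave 0 to 68 for HSPA8, 33 to 309 for RBM3, 0 to 13 for CIRBP and 1 to 9 of the list. The cause was not tested.

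Each member had a single probe set, so taking every probe set of a member gave no other value. No paired analysis was possible because the groups share no cow numbers. The precision is limited by 9 cows per group, and RNA integrity, sampling hour and batch per cow were not given in the sources used here.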
